A study of Mus musculus with 3 samples.

Results

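miR-15a, miR-15b and miR-16 were examined in tibialis anterior (TA) muscle before and after cardiotoxin (CTX) injury. The members are 4 mature miRNAs, listed as mmu-miR-15a-5p, mmu-miR-15b-5p, mmu-miR-15b-3p and mmu-miR-16-5p and written here without the species prefix. They were chosen by name out of 1138 listed mouse miRNAs, and all 4 were listed with at least 1 read in every library. The samples were TA muscles of wild type C57BL/6 mice aged 10 weeks. They were taken at day 0 or else at day 1 or 3 after an injection of CTX, a snake venom toxin that kills myofibers. The labels give 30 mL of 10 mM CTX or saline, whereas the methods of the study give the volume in μl and the concentration in μM, also with saline as the control. The text of the study calls the day 0 muscles uninjured, the name used here, and whether they received saline is not stated for these libraries. RNA of 4 samples was pooled into 1 library at each time point, so the 3 libraries hold no replicates. Any test between them speaks of these pools and not of the conditions.

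A mature miRNA guides an Argonaute protein to mRNAs that pair with its seed, bases 2 to 8 from the 5′ end, and the mRNA is then translated less or degraded. miRNAs with the seed of miR-15a and miR-16 are known for restraining the cell cycle, with cyclin D, cyclin E and their kinases among their targets, and for targeting the survival protein BCL2. Each hairpin precursor can give a miRNA from its 5′ arm (5p) and from its 3′ arm (3p), of which usually 1 is kept and the other is degraded.

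The mature sequences (RefSeq, GRCm38.p6) are shown first because they decide which members can share targets and which could share reads. Capitals mark the seed.
miR-15a-5p: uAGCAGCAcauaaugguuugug
miR-15b-5p: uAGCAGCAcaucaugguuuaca
miR-16-5p: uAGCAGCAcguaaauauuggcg
miR-15b-3p: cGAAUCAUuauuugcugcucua
The 5p members have the seed AGCAGCA, and miR-15b-3p has the seed GAAUCAU, which no other listed miRNA with a RefSeq sequence had. Counted from the 5′ end, miR-15a-5p and miR-15b-5p were identical at 18 of 22 positions and differed by A12C, G20A, U21C and G22A (the base of miR-15a-5p first). miR-16-5p was identical to miR-15a-5p at 16 of 22 positions and to miR-15b-5p at 14 of 22.

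The hairpins lie in pairs at 2 loci. Mir15b (chr3:69009772-69009835, plus strand) and Mir16-2 (chr3:69009902-69009996, plus strand) are 66 nucleotides apart in GRCm38, and in the GENCODE M21 annotation both lie in an intron of Smc4, a condensin subunit gene on the same strand. Mir16-1 (chr14:61631880-61631972, minus strand) and Mir15a (chr14:61632027-61632110, minus strand) are 54 nucleotides apart, within the noncoding RNA gene Dleu2 on the same strand. Mir15a is intronic in the Dleu2 transcripts that span it, while Mir16-1 overlaps an exon of 1 Dleu2 transcript. The hairpins below show why reads of miR-16-5p cannot be assigned to a locus. The mature arms are in capitals, and the 5p arm is the same in Mir16-1 and Mir16-2 while the 3p arms differ.
Mir15b: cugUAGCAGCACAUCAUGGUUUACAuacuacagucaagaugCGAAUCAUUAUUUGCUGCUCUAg
Mir16-2: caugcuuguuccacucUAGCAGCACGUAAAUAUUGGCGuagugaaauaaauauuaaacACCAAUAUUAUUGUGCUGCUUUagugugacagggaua
Mir16-1: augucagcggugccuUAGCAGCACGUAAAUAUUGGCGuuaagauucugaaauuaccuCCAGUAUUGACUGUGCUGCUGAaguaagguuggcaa
Opposite the seed, UGCUGCU (the reverse complement of AGCAGCA, searched on the RNA strand) was found in miR-15b-3p from position 13 and in miR-16-1-3p and miR-16-2-3p from position 14, but not in miR-15a-3p. Of 953 listed miRNAs with a RefSeq sequence, 4 (0.420%) held these letters. miR-15b-3p and miR-16-2-3p are among them, miR-16-1-3p is not listed, and the others were not examined here.

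Library totals were 8507580 (day 0), 6421056 (day 1) and 9795076 (day 3) reads. Levels are CPM (counts per 1000000 reads of the library), in which 3 reads, the smallest level taken as detectable, correspond to 0.306 to 0.467 CPM. Of the 4 markers of mature myofibers, miR-1a-3p had levels of 233587, 73841 and 88096 CPM in the day 0, day 1 and day 3 libraries. Those of miR-133a-3p were 25869, 12222 and 7340 CPM and those of miR-499-5p 316.1, 183.6 and 80.2 CPM, both lower on day 3 than on day 1. The fourth, miR-208b-3p, was near the limit with 4, 1 and 10 reads. miR-206-3p, a miRNA of regenerating muscle, was at 12384, 4781 and 180001 CPM, and was thus, like miR-15b-3p, higher on day 3 than on day 1 (5.23 on the log2 scale). Its part in the levels of the members was not tested. The miR-200 miRNAs of epithelium summed to 6.70, 169.9 and 83.2 CPM. Intervals are 95% intervals that cover counting error only, since PCR copies of a molecule are counted as separate reads, and nothing here measures how mice differ.

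All 4 members were higher in both injured libraries than on day 0 when reads were scaled to the library total, and the miR-15b arms were raised far more than miR-15a-5p and miR-16-5p. Their summed level was 11886 CPM in uninjured muscle (1.19% of the reads), 42845 CPM by day 1 (4.28%) and 26180 CPM by day 3 (2.62%). A miRNA was called where its level differed at least 2-fold and its adjusted p was 0.001 or less. The p came from Fisher's exact test (two-sided, reads of the miRNA against the other reads), adjusted by Benjamini and Hochberg's method over every miRNA with a read in either library. All 4 members were called higher on day 1, where 25.1% of the 998 miRNAs tested were called higher, and all 4 on day 3, where 26.1% of 1056 were. None was called lower on day 1 or day 3, against 4.31% and 4.36% of all miRNAs tested. Those tested include miRNAs with few reads, whereas every member had more than 10 reads in each library. Among miRNAs with 10 or more reads in both libraries compared, 177 of 393 were called higher on day 1 and 196 of 407 on day 3. In bulk muscle, more cells that hold a miRNA and more of it per cell cannot be told apart.

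The scaling decided part of these calls. With library totals, the median over miRNAs with 10 or more reads in each library compared was a log2 fold change of 0.90 for day 1 (393 miRNAs) and 0.93 for day 3 (407 miRNAs). It was -0.04 and 0.01 with the TMM factors of edgeR, which assume that most miRNAs do not change and shift every log2 fold change by -0.94 (day 1) or -0.93 (day 3). After this scaling only miR-15b-5p and miR-15b-3p were called higher, on both days, where 12.9% of all miRNAs tested were called higher on day 1 and 15.6% on day 3. The changes of the members relative to day 0 are therefore given with library totals and again with TMM factors, and all other changes with library totals unless stated.

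**Figure D1:**
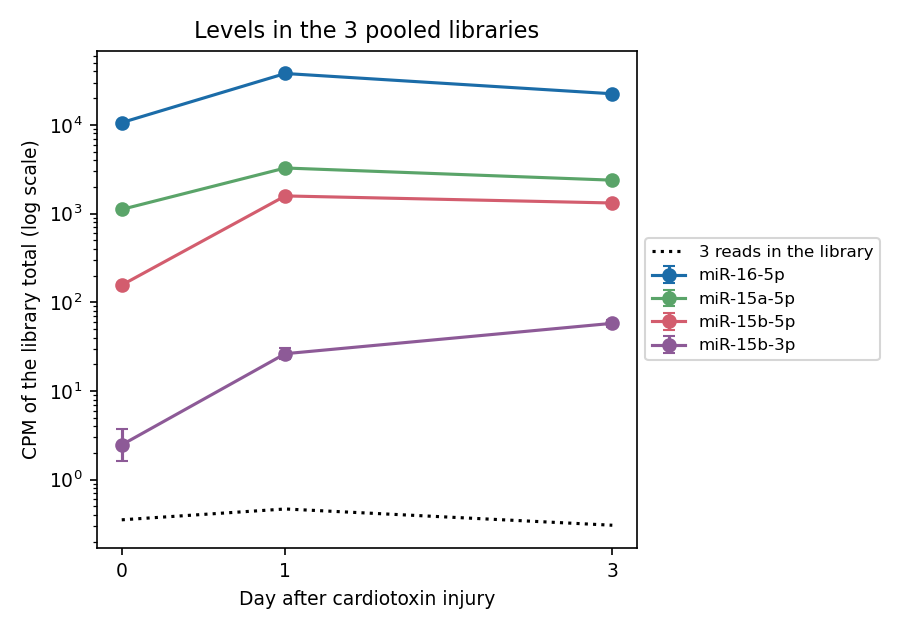
Level of each member (CPM of the library total, log scale) against the day after injury, 1 pooled library per point, with 95% Wilson intervals. The order miR-16-5p, miR-15a-5p, miR-15b-5p, miR-15b-3p is the same in the 3 libraries, all members lie above the dotted line of 3 reads, and from day 1 to day 3 only miR-15b-3p goes up in CPM, from 26.3 to 57.9 (in the unscaled expression values miR-15a-5p and miR-15b-5p go up too).

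miR-16-5p was the most abundant member in each library. It had 90292 reads in uninjured muscle, 243819 in the day 1 library and 219650 in the day 3 library. Levels were 10613 CPM (10545 to 10682), 37972 CPM (37824 to 38120) and 22424 CPM (22332 to 22517) in that order. Among all miRNAs it ranked 15, then 7, then 12. The day 1 library was highest and the day 0 library lowest, with intervals that did not overlap. Against uninjured muscle the log2 fold change was 1.84 for day 1 (1.83 to 1.85) and 1.08 for day 3 (1.07 to 1.09). With TMM factors these values were 0.89 and 0.15, below the fold threshold on both days, and with the median-of-ratios factors of DESeq2 the value for day 3 was -0.040. From day 1 to day 3 its log2 change was -0.76, also below the threshold.

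miR-15a-5p, cut from the hairpin next to Mir16-1, was the second most abundant member. Its reads numbered 9482, 20969 and 23319 in the libraries of day 0, day 1 and day 3, which gave 1115 CPM (1092 to 1137), 3266 CPM (3222 to 3310) and 2381 CPM (2350 to 2411). Day 1 was again highest and uninjured muscle lowest, without overlap. Its rank moved little, from 49 to 42 and 44. The log2 fold change was 1.55 for day 1 (1.52 to 1.59) and 1.09 for day 3 (1.06 to 1.13), and with TMM factors it was 0.61 and 0.17, under the threshold each time. The day 3 value was -0.024 by the median-of-ratios factors.

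miR-15b-5p, from the Smc4 locus, stood out by the size of its rise. Reads numbered 1330 in uninjured muscle, 10153 by day 1 and 12896 by day 3, at levels of 156.3 CPM (148.2 to 165.0), 1581 CPM (1551 to 1612) and 1317 CPM (1294 to 1339). The injured libraries were close to each other and far above the uninjured one. The level was 10.1 times that of day 0 on day 1 and 8.42 times on day 3, and the rank went from 98 to 56 and 64. The log2 fold change was 3.34 for day 1 (3.26 to 3.42) and 3.07 for day 3 (2.99 to 3.16), with TMM factors 2.39 and 2.15. Its day 1 value was in position 34 from the top among the 393 miRNAs with 10 or more reads in each library, and its day 3 value in position 55 of 407.

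miR-15b-3p, the other arm of the Mir15b hairpin, was scarce on day 0 and was the only member whose level in CPM was highest on day 3. With the deposited expression values, unscaled, miR-15a-5p and miR-15b-5p were also higher in the day 3 than in the day 1 library (log2 changes of 0.12 and 0.32). Its reads numbered 21, 169 and 567, and its level went from 2.47 CPM (1.61 to 3.77) in uninjured muscle to 26.3 CPM (22.6 to 30.6) at day 1 and 57.9 CPM (53.3 to 62.9) at day 3. The 3 intervals did not overlap. By Fisher's exact test the log2 fold change was 3.41 for day 1 (2.76 to 4.07, adjusted p = 2.7e-39) and 4.55 for day 3 (3.92 to 5.18, adjusted p = 2.9e-122), with TMM factors 2.47 and 3.63. Between days 1 and 3 it was the 1 member called, with a log2 change of 1.14 (0.89 to 1.38), where 9.60% of the 1104 miRNAs tested were called higher and 7.16% lower. Among the 476 miRNAs with 10 or more reads in both libraries, 89 were called higher and 67 lower. miR-15b-3p was also called with TMM factors, where 10.1% of all tested were called higher. By edgeR's exact test with a coefficient of variation between libraries assumed at 0.2 or 0.4, it was not called. The wide interval on day 0 reflects its 21 reads.

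The members were compared with each other by the difference of their log2 fold changes, which no scaling of the libraries can move, in 6 pairs for each of the 3 comparisons. miR-15b-5p rose more than miR-15a-5p, by 1.79 on the log2 scale at day 1 (1.70 to 1.88) and by 1.98 at day 3 (1.89 to 2.07). It also rose more than miR-16-5p, by 1.50 at day 1 (1.42 to 1.58) and 1.99 at day 3 (1.91 to 2.08). The changes of miR-16-5p and miR-15a-5p differed by 0.29 on day 1 (0.25 to 0.32, miR-16-5p higher) and by -0.016 on day 3, with an interval from -0.052 to 0.021 that includes 0. With the deposited expression values in place of reads, whose ratios between members need no scaling either, the day 1 difference had the opposite sign (-0.21) and the day 3 difference was -0.44.

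These differences changed the balance of miR-15a-5p and miR-15b-5p, which have the same seed and come from different loci. miR-15b-5p held 12.3% of the pair's reads in uninjured muscle (11.7 to 12.9), 32.6% at day 1 (32.1 to 33.1) and 35.6% at day 3 (35.1 to 36.1). For each read of miR-15b-5p there were 7.13, 2.07 and 1.81 reads of miR-15a-5p in the libraries in turn. For miR-16-5p and miR-15b-5p, which have a source in common at the Smc4 locus, this ratio was 67.9, 24.0 and 17.0. For miR-16-5p and miR-15a-5p it was 9.52, 11.6 and 9.42. These are ratios of reads, and both ratios of miR-16-5p are smaller in the deposited expression values. The expression values of miR-16-5p were 63.9%, 43.1% and 44.5% of its reads in the libraries in turn. Those of miR-15a-5p were 93.6%, 89.0% and 87.3%, and those of miR-15b-5p 99.1%, 94.3% and 92.8%. By these values miR-16-5p fell relative to miR-15a-5p by day 1 (log2 difference -0.21) and further by day 3 (-0.44).

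The arms of the Mir15b hairpin had close log2 fold changes on day 1 and differed on day 3. Of the reads of the hairpin, miR-15b-3p held 1.55% in uninjured muscle (1.02 to 2.36), 1.64% at day 1 (1.41 to 1.90) and 4.21% at day 3 (3.89 to 4.56). The log2 fold changes of the arms differed by 0.08 on day 1 with an interval from -0.58 to 0.74, so that the interval reaches up to a 1.67-fold larger rise of miR-15b-3p. From day 1 to day 3 miR-15b-3p gained 1.40 on the log2 scale over miR-15b-5p. A shift between arms was common in these libraries. Of 131 hairpins with at least 10 reads of both arms on days 1 and 3, the ratio of the arms moved at least 2-fold, with an interval that left out no change, for 49 (37.4%), and it moved more than that of Mir15b for 27. Relative to day 0 this share was 34.7% of 101 hairpins on day 1 and 45.8% of 107 on day 3.

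The remaining 3p arms could point to a locus but were near the detection limit. miR-16-2-3p, from the Smc4 locus, had 3, 26 and 29 reads in the libraries of day 0, day 1 and day 3. It was called higher on both days with library totals, with log2 fold changes of 3.52 (1.80 to 5.25) and 3.07 (1.35 to 4.78), and on neither day with TMM factors, where its log2 fold changes of 2.58 and 2.14 stayed above the fold threshold but its adjusted p did not pass. miR-15a-3p, from the Dleu2 locus, had 9, 20 and 18 reads and was called on neither day, with log2 fold changes of 1.56 (0.42 to 2.69) and 0.80 (-0.36 to 1.95). miR-16-1-3p was not analysed here. The log2 fold change of miR-16-2-3p exceeded that of miR-15a-3p by 1.96 on day 1, with an interval of -0.10 to 4.03 that includes 0 (p = 0.10, two-sided Fisher's exact test). On day 3 it did so by 2.27, with an interval of 0.21 to 4.34 (p = 0.048, the same exact test). Both p-values are unadjusted, the comparison was added after the values were seen, and it rests on 3 reads of miR-16-2-3p at day 0.

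**Figure D2:**
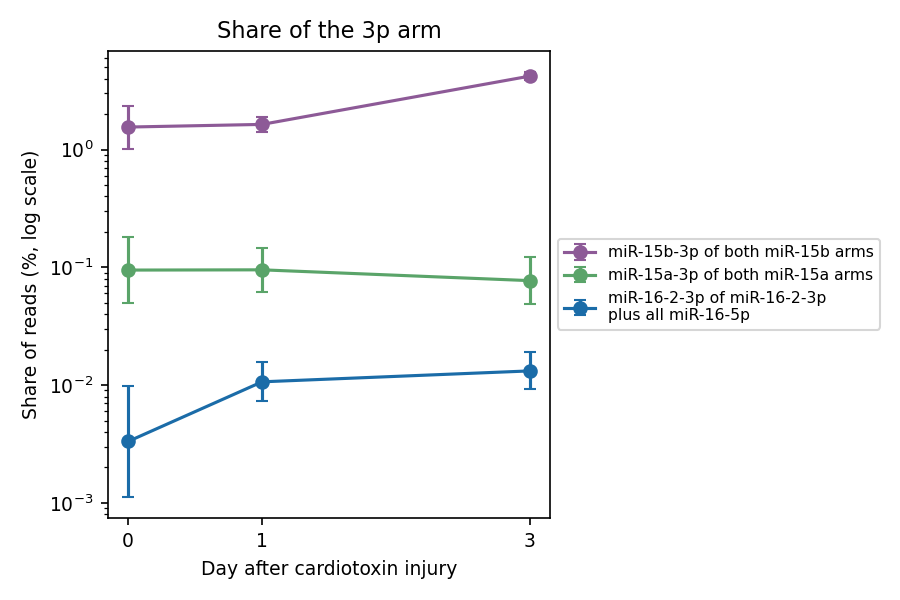
Share of 3p arm reads (%, log scale) against the day after injury, with 95% Wilson intervals, 1 pooled library per point. The share of miR-15b-3p is 1.55% and 1.64% on days 0 and 1 and 4.21% on day 3, while the intervals of miR-15a-3p overlap on the 3 days. miR-16-5p includes reads from both of its hairpins.

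Of the 953 listed miRNAs with a RefSeq sequence, 3 others have the seed AGCAGCA. They are shown because, by the seed, they could act on the same mRNAs.
miR-195a-5p: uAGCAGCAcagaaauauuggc
miR-322-5p: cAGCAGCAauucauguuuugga
miR-497a-5p: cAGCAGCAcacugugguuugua
miR-195a-5p differs from miR-16-5p over its 21 bases only by G10A and U11G (the base of miR-16-5p first), so that reads with sequencing errors there could be divided between them. miR-195a-5p and miR-497a-5p come from hairpins next to each other on chromosome 11, and miR-322-5p from the X chromosome.

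Of the 3 relatives, miR-195a-5p rose on day 1 to about the extent of miR-16-5p but not on day 3. Its level was 394.8, 1510 and 242.5 CPM in the day 0, day 1 and day 3 libraries. miR-195a-5p was called higher on day 1 with library totals (log2 fold change 1.94; 0.99 with TMM factors, below the threshold). On day 3 its log2 fold change was -0.70, not called with library totals but called lower with TMM factors (-1.63). Its log2 fold change differed from that of miR-16-5p by 0.10 on day 1 (0.04 to 0.15) and by -1.78 on day 3 (-1.86 to -1.71). From day 1 to day 3 it fell by 2.64 on the log2 scale, a call that held with TMM factors, beside -0.76 for miR-16-5p with library totals. miR-322-5p was at 4702, 5952 and 4968 CPM and miR-497a-5p at 985, 1323 and 1474 CPM, and neither was called in any of the 3 comparisons with library totals. Summed without the members, the relatives were at 6081, 8785 and 6684 CPM.

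Within the reads with this seed, the shares of miR-16-5p and miR-15b-5p were larger in both injured libraries than on day 0. Together the 6 miRNAs with the seed held 1.80%, 5.16% and 3.28% of the libraries of day 0, day 1 and day 3. Of these, miR-16-5p held 59.1% in uninjured muscle (58.8 to 59.3), 73.6% at day 1 (73.4 to 73.7) and 68.4% at day 3 (68.2 to 68.5). miR-15b-5p went from 0.870% to 3.06% and 4.01%, and miR-15a-5p from 6.20% to 6.33% and 7.26%. The share of miR-322-5p was 26.2%, 11.5% and 15.1%. These shares do not depend on how the libraries are scaled, but they do depend on which deposited column is used. In the expression values miR-16-5p made up 52.0%, 57.8% and 53.3%, miR-15a-5p 7.99%, 10.3% and 11.1%, and miR-15b-5p 1.19%, 5.27% and 6.53%, so that on day 3 miR-16-5p gained less than both.

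**Figure D3:**
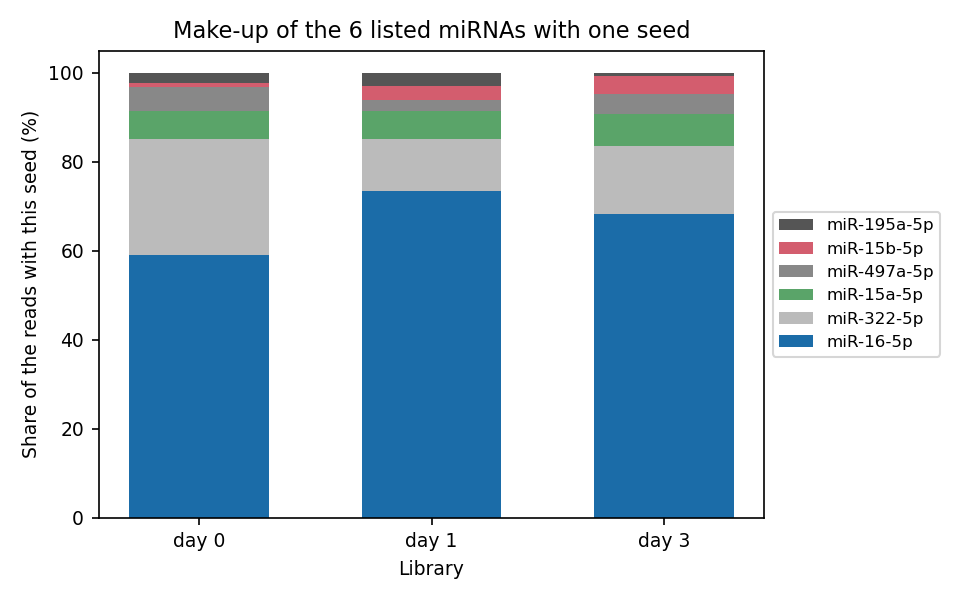
Make-up of the reads of the 6 listed miRNAs with the seed AGCAGCA in each library, as stacked shares (%) that sum to 100 per library. miR-16-5p is the largest part in each (59.1%, 73.6% and 68.4%), miR-322-5p is largest on day 0 (26.2%), and miR-15b-5p grows from 0.870% to 4.01%.

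Of the markers of blood, miR-451a and both arms of miR-144 were higher along with miR-16-5p on day 1 with library totals, and miR-486a-5p was lower on both days. Red blood cells are rich in miR-451a and miR-144 as well as miR-16. miR-451a was at 7099, 25178 and 12479 CPM, with log2 fold changes of 1.83 and 0.81, beside 1.84 and 1.08 for miR-16-5p. Of the 4 erythroid markers, 3 (miR-451a, miR-144-3p and miR-144-5p) were called higher on day 1 with library totals and none with TMM factors, and none was called higher on day 3. The fourth, miR-486a-5p, which myofibers also hold, was called lower on both days, with log2 fold changes of -1.26 and -1.46. The summed level of this list was 8160, 25758 and 12933 CPM, and none of its markers was at 0 reads. The ratio of miR-16-5p to miR-451a, looked at after the values were seen, was 1.49 in uninjured muscle (1.48 to 1.51), 1.51 at day 1 (1.50 to 1.52) and 1.80 at day 3 (1.78 to 1.81). The ratio of miR-15b-5p to miR-451a was 0.0220, 0.0628 and 0.106. The endothelial pair miR-126a-3p and miR-126a-5p summed to 59427, 132923 and 58732 CPM, so that with library totals it was higher on day 1, as miR-16-5p was, and near the level of day 0 on day 3. With TMM factors neither was called higher on day 1 and miR-126a-5p was called lower on day 3. Their log2 fold changes on day 3 were -0.01 and -0.20. The part of these cell types in the levels of the members was not tested.

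Of 6 leukocyte markers, miR-223-3p, miR-142a-3p, miR-142a-5p and miR-342-3p were called higher on each day under library totals as well as TMM factors. The summed level of all 6 was 5149, 19499 and 7479 CPM, of which miR-150-5p, a lymphocyte miRNA, held 4733, 8307 and 3197 CPM. miR-223-3p, a miRNA of myeloid cells, had log2 fold changes of 6.32 and 4.28 and miR-142a-3p of 6.06 and 5.02. miR-155-5p (0.77 and 0.72) and miR-150-5p (0.81 and -0.57), were called on neither day with library totals, and miR-150-5p was called lower on day 3 with TMM factors. No leukocyte marker was at 0 reads in any library. Whether leukocytes carried the reads of miR-15b was not tested.

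**Figure D4:**
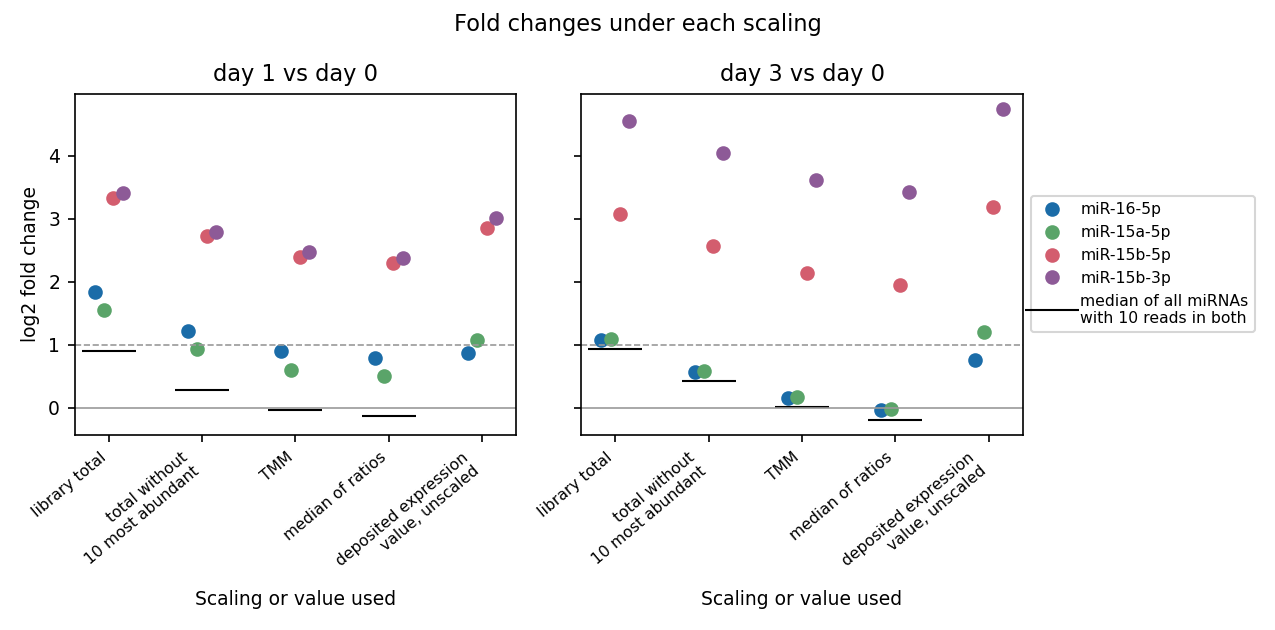
log2 fold change of each member on day 1 (left) and day 3 (right) relative to day 0 under 4 scalings of the reads and with the deposited expression values as they stand, unscaled, 1 pooled library per day. Black bars give the median of all miRNAs that have 10 or more reads in each library compared, and the dashed line is the fold threshold. Both miR-15b arms stay above it throughout, while miR-16-5p and miR-15a-5p come down to near 0 on day 3 with TMM factors (0.15 and 0.17).

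In a list of 21 other miRNAs linked to the cell cycle, most were called higher. The list was chosen with earlier results of these data known, so its counts are a description and no test of such miRNAs. It holds the miR-17, miR-106b and miR-34 groups, miR-221 and miR-222, let-7a, b, c, g and i (5p), miR-26a-5p and miR-503-5p. Among those of the let-7 family left out, let-7d-5p, let-7e-5p and let-7f-5p were not called on day 1 (0.21, 0.97 and 0.40). On day 3 let-7e-5p and let-7f-5p were called higher (1.96 and 1.30) and let-7d-5p was not (0.72). With library totals 18 of 21 were called higher on day 1 and 20 of 21 on day 3, and none was called lower on either day, beside 25.1% and 26.1% of all miRNAs tested that were called higher. With TMM factors 13 and 16 were called higher, beside 12.9% and 15.6% of all, and 1 on each day lower. Of miRNAs with 10 or more reads in both libraries, library totals called 177 of 393 higher on day 1 and 196 of 407 on day 3. The median log2 fold change of the list was 2.62 on day 1 and 2.56 on day 3, beside 0.96 and 1.01 for all miRNAs with reads in both libraries. On both days the highest value was that of miR-18a-5p (4.68 and 5.91) and the lowest that of miR-26a-5p (-0.23 and -0.72). miR-15a-5p (1.55 and 1.09) and miR-16-5p (1.84 and 1.08) were below the median of this list on both days, and miR-15b-5p (3.34 and 3.07) was above it.

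The miRNAs nearest to each member were found by the distance between pairs of log2 fold changes (day 1 and day 3 over day 0), among 213 miRNAs with at least 100 reads in every library. With 3 libraries that share the day 0 control, this is a description only. Nearest to miR-16-5p were miR-24-3p (distance 0.11), miR-144-3p (0.18) and miR-186-5p (0.26). Nearest to miR-15a-5p were miR-103-3p (0.11), miR-187-3p (0.14) and miR-24-3p (0.18). miR-15b-5p was nearest to miR-214-3p (0.33), miR-500-3p (0.33) and miR-221-3p (0.40). miR-15b-3p was nearest to miR-222-3p (0.37), miR-7a-5p (0.54) and miR-221-3p (1.09). miR-24-3p was thus among the nearest for both miR-16-5p and miR-15a-5p, and miR-221-3p for both arms of miR-15b, though at 1.09 from miR-15b-3p. The latter had 21 reads on day 0, below the 100 asked of the others, so counting error could change the order of its neighbours.

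**Figure D5:**
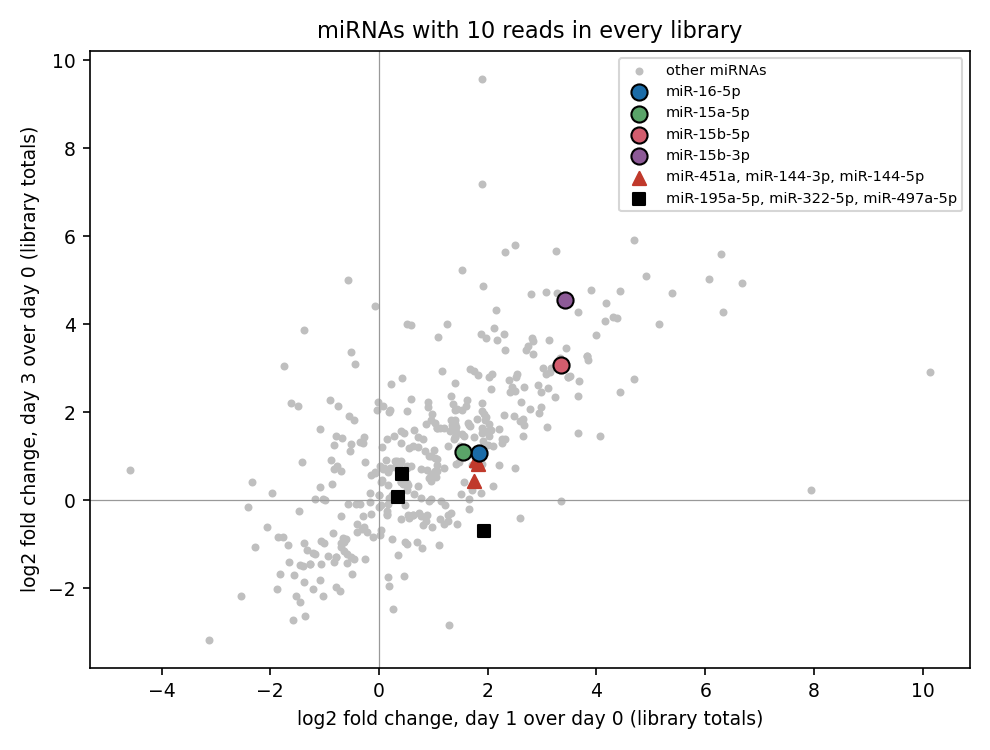
log2 fold change on day 3 against that on day 1, both relative to the same day 0 library and with library totals, for the 389 miRNAs with at least 10 reads in every library. miR-16-5p (1.84, 1.08) and miR-15a-5p (1.55, 1.09) lie together, both arms of miR-15b lie higher on both axes, and miR-195a-5p (1.94, -0.70) lies below the members. Triangles mark red blood cell miRNAs, of which miR-451a (1.83, 0.81) and miR-144-3p (1.79, 0.91) lie closer to miR-16-5p than miR-144-5p (1.74, 0.44) does. The fourth, miR-486a-5p (-1.26, -1.46), is not marked.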

How the data were processed

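Small RNAs of 18 to 30 nucleotides from TA muscle were sequenced on the BGISEQ platform at BGI, with 4 samples pooled into 1 library on each of days 0, 1 and 3. Alignment by the authors was to GRCm38.p6. The submitters' processing notes name HISAT and Bowtie2 without a role. The counting tool is not given in the sources used here. For each of 1138 miRNAs the authors deposited the read count, without normalization, which was used for all levels and tests. An expression value deposited beside it was handled as a score, since its making is not stated. It never exceeds the reads and was 43.1% of them for miR-16-5p on day 1, and it was used only as an alternative.

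Fold changes were ratios of CPM with 95% Wald intervals, and levels and shares have 95% Wilson intervals. Calls used Fisher's exact test at thresholds taken from the methods of the study, and an exact binomial test for the other scalings. For lack of replicates, edgeR's exact test was run with the coefficient of variation set to 0.2 or 0.4. The members, the lists and the rules for named miRNAs (members, same seed, other arms, the 3 nearest patterns per member, marker and cell cycle lists) were chosen with earlier results of these data known. Hairpin positions came from GENCODE M21 (GRCm38) and sequences from RefSeq (GRCm38.p6), matched by name for all 4 members. Tools were R 4.3.3 with DESeq2 1.42.0 and edgeR 4.0.16, and Python 3.11.15 with scipy 1.17.1, pandas 2.3.3, numpy 2.4.6 and matplotlib 3.10.9.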

Additional observations from a re-analysis of the deposited data

Results flagged for a closer look

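From day 1 to day 3, miR-15b-3p and miR-195a-5p changed in opposite directions. miR-15b-3p was higher on day 3, by 1.14 on the log2 scale, while the other 3 members were lower there in CPM. In the unscaled expression values miR-15a-5p and miR-15b-5p were instead at 0.12 and 0.32, and miR-15b-5p was at 0.032 per total of that column. miR-195a-5p, which has the seed of miR-16-5p, changed by -2.64. Both were called in this comparison, in which several blood, vessel, leukocyte and cell cycle miRNAs were called too. They are single-library differences with no replicate check.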

How the results depend on the processing

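With 1 pooled library per day, the number of members called higher moved with the scaling and with any spread assumed between libraries, whereas a minimum of 10 reads and a pseudocount of 1 CPM changed no call of a member. With TMM factors 2 members were called on day 1 and 2 on day 3, and miR-15a-5p was at log2 values of 0.61 and 0.17 and miR-16-5p at 0.89 and 0.15. Median-of-ratios factors also left 2 and 2, with miR-15a-5p at 0.51 and -0.024 and miR-16-5p at 0.80 and -0.040, so that the sign for day 3 reversed for both. Totals without the 10 most abundant miRNAs left 3 and 2, with miR-15a-5p at 0.93 and 0.59 and miR-16-5p at 0.57 for day 3. The expression values as deposited, which change both the column and the scaling since they were not divided by any total, put miR-16-5p at 0.86 and 0.76. Divided by the total of their own column, a setting added after seeing the data, they left 2 members on each day, with miR-15a-5p at 0.85 and 0.68 and miR-16-5p at 0.64 and 0.25. miR-15b-5p and miR-15b-3p were called higher on both days under each of these 5 settings. Calls among all miRNAs moved too. Out of 998 tested on day 1, median-of-ratios scaling called 118 higher, and leaving out the 10 most abundant called 173. Their day 3 counts, out of 1056, were 148 and 217. Expression values as deposited gave 211 on day 1 and 283 on day 3, against 195 and 251 when divided by their column total. From day 1 to day 3 the sign turned for miR-15a-5p (-0.46 to 0.12) and miR-15b-5p (-0.26 to 0.32) with unscaled expression values. With those per column total it turned for miR-15b-5p (0.032). Neither miR-15a-5p nor miR-15b-5p was called in that comparison.

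An assumed coefficient of variation leaves the fold changes as they are and raises the adjusted p of edgeR's exact test. At 0.2, 162 of the 998 miRNAs tested were called higher on day 1 and 201 of 1056 on day 3. Between days 1 and 3 it was 60 of 1104. At 0.2, 3 members were called on day 1 and 2 on day 3, and calls were lost for miR-15a-5p (1.55, adjusted p = 0.0012, and 1.09, adjusted p = 0.027) and for miR-16-5p on day 3 (1.08, adjusted p = 0.030). The change of miR-15b-3p between days 1 and 3 (1.14, adjusted p = 0.057) was then not called, which left 0 members. At 0.4, 0 members were called on day 1, 1 on day 3 (miR-15b-3p) and 0 between the injured libraries. Few of all miRNAs tested were called higher at this setting, 28 of 998, 54 of 1056 and 9 of 1104 in the same order. The adjusted p for day 1 was then 0.28 for miR-15a-5p (1.55), 0.17 for miR-16-5p (1.84), 0.0049 for miR-15b-5p (3.34) and 0.0073 for miR-15b-3p (3.41). For day 3 it was 0.48 for miR-15a-5p (1.09), 0.49 for miR-16-5p (1.08) and 0.0073 for miR-15b-5p (3.07), and it was 0.81 for miR-15b-3p between the injured libraries (1.14).

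Differences between members were recomputed under 2 settings chosen after seeing the data. With expression values, the difference of miR-16-5p minus miR-15a-5p was -0.21 on day 1, a reversal, and -0.44 on day 3, where it then exceeded counting error. With a pseudocount of 1 CPM, that of miR-15b-3p minus miR-15b-5p on day 1, within counting error, went from 0.08 to -0.35. The other differences kept their sign and their side of counting error. Expression values also moved the shares within the seed, on days 0, 1 and 3 in turn, to 7.99%, 10.3% and 11.1% for miR-15a-5p, 1.19%, 5.27% and 6.53% for miR-15b-5p, 52.0%, 57.8% and 53.3% for miR-16-5p, 2.95%, 5.02% and 1.27% for miR-195a-5p, 28.8%, 17.2% and 20.6% for miR-322-5p, and 7.13%, 4.44% and 7.22% for miR-497a-5p. The share of miR-15b-3p among both arms stayed within its interval. The cause of these shifts was not tested. No paired analysis was possible because each day has 1 library and the labels carry no replicate numbers.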
